A study of Selaginella moellendorffii with 8 samples.

Results

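The root and the shoot tip of Selaginella moellendorffii were compared in 4 of the 8 RNA sequencing libraries of the series, 2 labelled Root and 2 labelled Shoot. The other 4 libraries, 2 of rhizophore and 2 of leaf, stayed out of the main fit. They serve below for levels and in alternative fits on 8 or 7 libraries. Roots were outgrowths of the ventral angle meristem aged 10 to 20 days, 5 to 10 cm long, with a developed cap and hairs. Shoots were the far ends of young green branches that had formed microphylls, 10 to 20 days after branching. All plants were untreated explants grown from stem cuttings at 80% humidity with 16 h of light and 8 h of dark, and each library came from 40 pooled tissue pieces. The labels name the libraries biological repeats without stating that they are from different plants. P-values therefore reflect only the spread between these samples, which may be technical.

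Selaginella is a lycophyte, a lineage of vascular plants whose roots are generally held to have arisen apart from those of ferns and seed plants. Its root grows from a tip meristem under a protective cap and takes up water and nutrients through hairs. Its shoot tip produces microphylls, small leaves with a single vein, and carries out photosynthesis. The question here was how the meristem-bearing regions of these organs differ in their transcripts.

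Expression was given as raw counts for 25004 gene models. The names of these models were not found among the 37888 genes of the reference table (0 matched), and the files do not pair them with genes. Models are therefore described by level, by fold and by how they behave across organs, and neither pathways nor the marker genes of root and shoot could be examined. In bulk tissue, fewer cells of a type and less RNA per cell cannot be told apart.

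The root libraries were deeper and spread over more models. Root replicates 1 and 2 held 25937179 and 27891111 counts, against 15161907 and 15305641 in shoot replicates 1 and 2. They listed 24582 and 24858 models above 0, against 17834 and 17914 in the shoot libraries. The exact permutation test, two-sided, gave p = 0.33, the smallest that 2 libraries against 2 allow. With root counts scaled to the mean shoot total and values then under 5 set to 0, the root libraries listed 24327 and 24771 models. This matched totals only. The most abundant models took a larger share of shoot counts, as given below, so depth for the remaining models was not matched.

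A small number of models held 50% of the shoot's counts, and counts in root were spread far more evenly. The counts of 1173 and 1407 models made up 50% of root replicates 1 and 2, whereas 60 and 61 models did so in shoot replicates 1 and 2. The 10 most abundant models took 7.95% and 5.44% of counts in root, against 33.2% in each shoot library. The 1000 most abundant took 47.2% and 44.2% in root, against 74.7% in each shoot library. The same model ranked first in all 4 libraries, at 4.26% and 1.70% of counts in root, against 10.9% and 10.7% in shoot. The 95% Wilson intervals of these last shares cover counting error only and are narrow, from 4.25% to 4.27% for root replicate 1 and from 10.92% to 10.95% for shoot replicate 1.

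**Figure D1:**
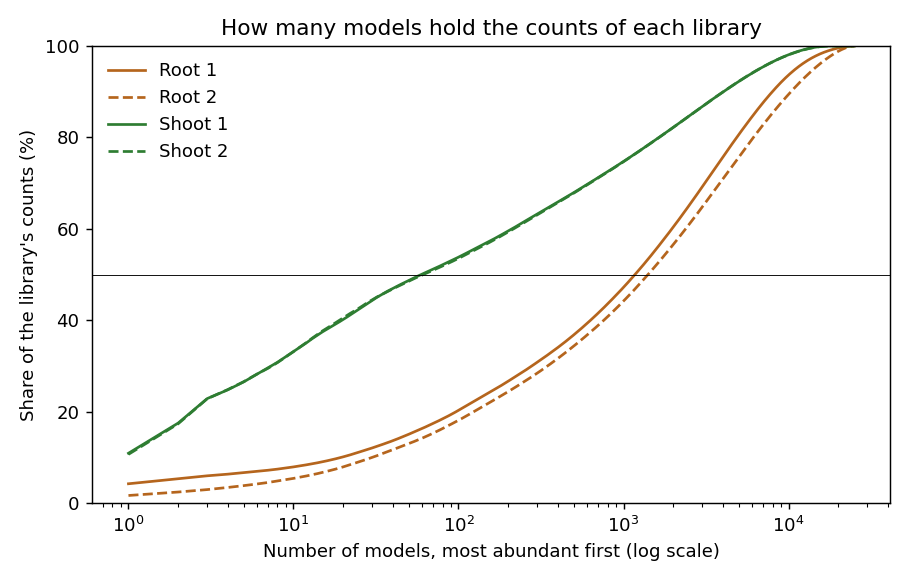
Cumulative share of each library's counts (%) against the number of models, most abundant first, on a log axis. Brown lines are root libraries and green lines shoot libraries, and the shoot curves cross the horizontal line at 50% at 60 and 61 models, the root curves at 1173 and 1407.

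The lists of most abundant models overlapped in part. The 100 models with the highest mean share of counts in root and the 100 in shoot had 39 in common, which is 39% of each list. The root's 100 took 20.1% and 18.0% of counts in the root libraries and 37.6% in each shoot library. The 39 shared models took 11.96% and 9.02% of counts in root, against 35.2% in each shoot library. The shoot's 100 took 13.7% and 10.6% of counts in root, against 53.8% and 53.5% in shoot. Counts are not divided by transcript length, which the files do not give, so these are shares of reads and not of molecules.

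The libraries also differed in their scaling factors. TMM, which assumes that most models do not differ, gave factors of 1.45 and 1.80 to the root libraries, against 0.621 and 0.615 to the shoot libraries. Levels below are CPM, counts relative to the library's total, after this scaling. The files list no count from 1 to 4, so a 0 may hide up to 4 reads. In CPM, 5 counts correspond to 0.133 and 0.0996 in root, against 0.531 in each shoot library.

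Root and shoot differed in 13205 of the 23862 models tested (55.3%) by edgeR's quasi-likelihood test at an adjusted p under 0.05. Of these, 8851 were higher in root (37.1% of those tested) and 4354 were lower (18.2%). The total was 8309 and 8539 without shoot replicate 1 or 2, and library totals with no TMM gave 15888 higher and 1363 lower. The balance turned without root replicate 1 (4730 higher, 4861 lower), without root replicate 2 (4326 and 4739), with all 8 libraries (1239 and 1988, 3227 in all) and with every 0 set to 4 reads (3669 and 5299). A fit on 7 libraries, all but the one labelled rhizophore replicate 2, called 13526. The sum joins populations that behave differently, which were separated by level. Well expressed models had a mean of at least 10 CPM in at least 1 of the organs, and there were 11892 of them. The remaining 11970 were under 10 CPM in both, and the nearest models on either side of the boundary stood at 10.0 and 9.9972 CPM in their higher organ.

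Among well expressed models, more were lower in root than higher. Of the 11892, 2695 were higher in root (22.7%), 4053 were lower (34.1%) and 5144 passed in neither direction, so that 6748 were called in all (56.7%). Without shoot replicate 1 or 2 the well expressed count was 3989 and 4013, with all 8 libraries fitted together it was 2785, and in the 7-library fit 7750. Both root libraries lay above both shoot libraries in 4036 of all 11892 well expressed models (33.9%) and below both in 5589 (47.0%), so that lack of overlap was more common than a call. The median log2 fold change of root over shoot was -0.21 over all well expressed models. The median of the called models that were higher in root was 1.502, a fold of 2.83, and that of the lower ones -1.73, a fold of 3.32 in favour of shoot.

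The balance between these directions depended on scaling. With TMM computed from well expressed models alone, 4173 were higher and 3349 lower, and the median was 0.18. With library totals and no TMM, chosen after seeing the data, 9258 were higher and 1308 lower, and the median was 1.45. Under all 4 scalings tried, 2638 of the 2695 models higher in root kept that call, against 1352 of the 4053 lower ones, and 240 well expressed models were called in opposite directions by different scalings.

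The calls changed steadily with level. At 10 to 20 CPM in the higher organ, 982 of 3478 models were higher in root and 768 lower. At 20 to 50 CPM, 1002 of 4125 were higher and 1284 lower, and at 50 to 100 CPM 447 of 2195 were higher and 850 lower. At 100 to 1000 CPM, 255 of 1954 were higher and 1044 lower. Above 1000 CPM, 9 of 140 models were higher in root and 107 lower, so that 76.4% of the models in this step were lower in root. The steps use CPM after TMM, whose factors raise shoot levels relative to root levels, so the choice of models depends on the scaling. The median log2 fold change over these steps was 0.21, -0.13, -0.39, -0.93 and -2.9995. With library totals and no TMM it was 1.60, 1.25, 0.98, 0.45 and -1.61 over the same models, in the same order, and above 1000 CPM 31 were higher in root and 85 lower. Those models were still the ones chosen after TMM. By library totals, 77 and 79 models stood at 1000 CPM or more in root replicates 1 and 2, against 70 and 68 in shoot replicates 1 and 2.

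**Figure D2:**
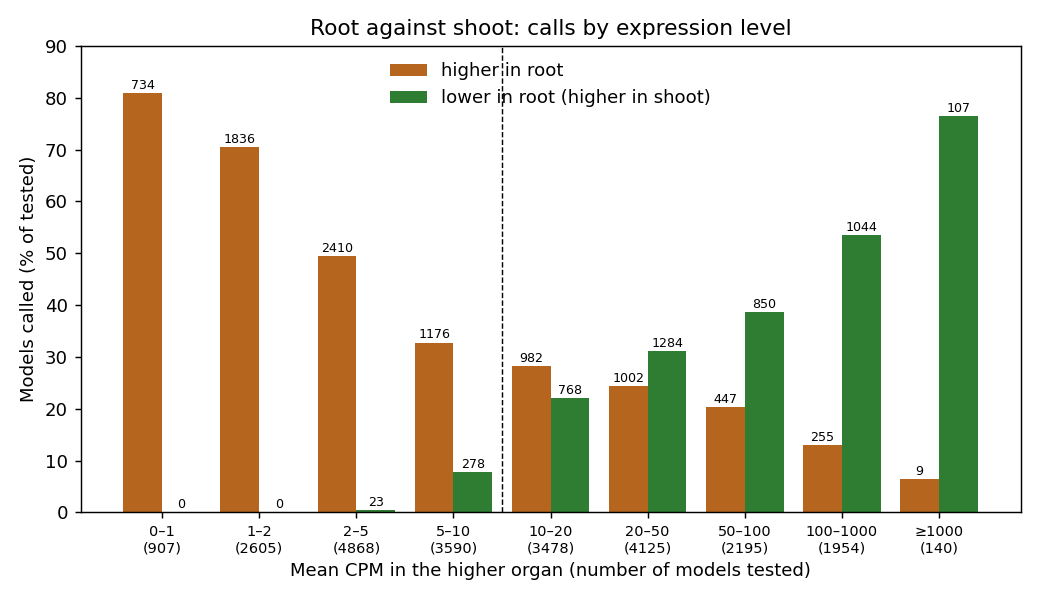
Share of tested models (%) called higher in root (brown) and lower in root (green), by mean CPM in the higher organ, with the number called above each bar and the number tested in brackets. The dashed line marks 10 CPM. Calls higher in root take 80.9% of tested models under 1 CPM and 6.43% of those above 1000 CPM, and calls lower in root take 0% and 76.4%. Tested models are those left by the filter on low counts, which models at 0 in shoot pass through root alone.

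Very large differences among well expressed models were found in both directions. They are ratios of mean CPM, in which an organ below 5 counts per library was set to that level, so that the ratio of such a model is a lower bound. At least 16-fold separated 247 of the models higher in root, 138 of them with shoot under that floor, and 313 of those lower, 2 of them with root under it. At least 64-fold separated 27 higher in root (20 with shoot under the floor) and 53 lower (2 with root under it). At least 256-fold separated 3 higher (3 with shoot under the floor) and 14 lower (0 with root under it). The floor averaged 0.531 CPM in shoot, against 0.116 CPM in root, so the bounds reach less far for models higher in root. Levels were taken over all called well expressed models, whatever their fold. The 2695 higher in root had a median of 27.3 CPM in root, against 8.55 CPM in shoot, and reached 3347 CPM in root. The 4053 lower in root had a median of 13.5 CPM in root, against 49.4 CPM in shoot, and reached 175074 CPM in shoot. These maxima are not limited to models with very large folds.

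Measured as reads, the models called lower in root in the main fit took most of the shoot's counts. They were picked by level in these same libraries, so the shares describe the calls and are no separate result. Under all 4 scalings, 1352 of the 4053 lower models kept their call. The 4053 models took 28.0% and 25.0% of counts in root replicates 1 and 2, against 77.3% and 78.2% in shoot. The 2695 models higher in root took 23.3% and 23.7% of counts in root, against 2.94% and 2.91% in shoot. The 5144 well expressed models that passed in neither direction took 43.6% and 42.4% in root, against 18.5% and 17.5% in shoot.

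**Figure D3:**
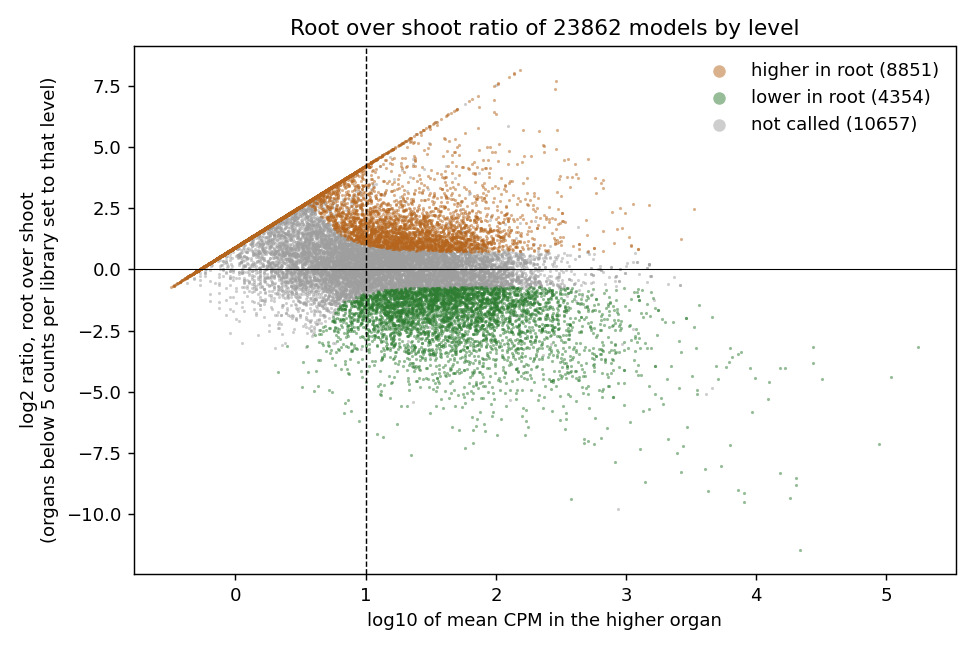
Log2 ratio of mean CPM, root over shoot, against the log10 of mean CPM in the higher organ for the 23862 models tested, with an organ below 5 counts per library set to that level. Brown points are the 8851 models called higher in root, green the 4354 called lower and grey the rest. The straight upper edge is formed by models at 0 in both shoot libraries, and the dashed line marks 10 CPM.

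A few models show what the largest differences look like in each library. They were the first 2 in each direction by log2 fold change among 711 models higher in root and 2001 lower in root. All of these were called, did not overlap between organs and had at least 50 CPM in the higher organ.

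The model 76987.v1 had 172 and 132 CPM in root replicates 1 and 2 (6465 and 6639 counts), against 0 in both shoot libraries. Its root mean of 152 ± 27.8 CPM (SD, n = 2) was at least 286-fold higher than the floor of 5 counts per shoot library (edgeR adjusted p = 2.7e-11). The root libraries were alike and the shoot libraries empty. Outside these organs it was at 0 in rhizophore replicate 1 and both leaf libraries and at 42.4 CPM in the library labelled rhizophore replicate 2. In a fit on all 8 libraries the call ended (edgeR adjusted p = 0.132, the highest value over the alternatives). The call held in the fit without that rhizophore library, which leaves a lone library for that organ, so its p-value is not given. With limma-voom on the 4 libraries the call held as well (limma-voom adjusted p = 0.0033).

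The model 415652.v1 had 92.6 and 185 CPM in root (3491 and 9274 counts), against 0 in both shoot libraries. The mean of 139 ± 65.2 CPM (SD, n = 2) was at least 261-fold higher than the same floor (edgeR adjusted p = 5.3e-09). Root replicate 2 held about 2 times the level of replicate 1, yet neither came near the shoot libraries. The model stood at 0.883 and 5.18 CPM in the rhizophore libraries and at 0 in both leaf libraries, all below both root libraries.

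The model Smoe_00044417 had 6.98 and 7.97 CPM in root, against 22374 and 20607 CPM in shoot. The means were 7.47 ± 0.700 CPM in root and 21490.4 ± 1249 CPM in shoot (SD, n = 2 each), so that the log2 ratio of root over shoot came to -11.49 (SE 0.42, edgeR adjusted p = 9.0e-14). The root level rested on 263 and 400 counts, well above the floor, so the model was low but not absent in root. It was at 0 and 0.324 CPM in rhizophore and at 883 and 1245 CPM in leaf.

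The model 442193.v1 had 8.60 and 13.1 CPM in root, against 6578 and 9382 CPM in shoot. The means were 10.8 ± 3.16 CPM in root and 7979.9 ± 1982 CPM in shoot (SD, n = 2 each), which put the log2 ratio of root over shoot at -9.52 (SE 0.43, edgeR adjusted p = 3.3e-12). With library totals and no TMM the log2 fold changes were -8.09 for 442193.v1 and -10.08 for Smoe_00044417, and both stayed called. Rhizophore libraries had 17.3 and 21.1 CPM, close to root, and leaf libraries 2582 and 4839 CPM, below both shoot libraries. Of the named models, 0 had a partner with counts within 0.1 log2 across the 8 libraries.

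**Figure D4:**
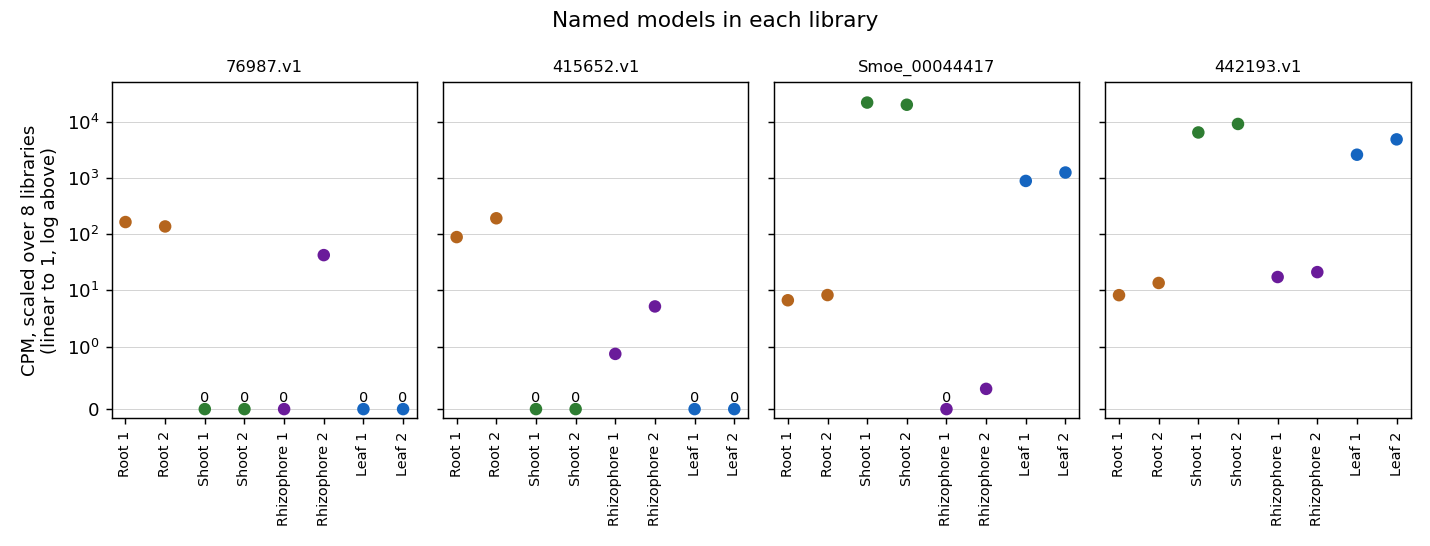
CPM of the named models in each of the 8 libraries, 1 point per library, on an axis that is linear up to 1 and logarithmic above, with zeros marked. Levels here are scaled over all 8 libraries and differ slightly from those of the root and shoot fit. The first 2 panels have their points above 80 CPM only in root, and the last 2 have theirs only in shoot and leaf.

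Most called models under 10 CPM in both organs were higher in root. Of the 11970 tested, 6156 were higher in root (51.4%) and 301 were lower (2.51%), 6457 in all (53.9%). The count was smaller without root replicate 1 (1527 higher, 201 lower), without root replicate 2 (792 and 465), with every 0 set to 4 reads (2318 and 423) and with all 8 libraries (442 in all, against 5776 in the 7-library fit). Their median level was 2.83 CPM in root, against 0.478 CPM in shoot. The share higher in root was 80.9% under 1 CPM, 70.5% at 1 to 2 CPM, 49.5% at 2 to 5 CPM and 32.8% at 5 to 10 CPM. These are shares of the models left by the filter on low counts. A model at 0 in both shoot libraries passes that filter through root alone. Such models were 734 of the 907 tested under 1 CPM and 1836 of the 2605 at 1 to 2 CPM. The part of the filter in these shares was not tested. As reads the models under 10 CPM weigh little. The 6156 took 2.07% and 4.38% of counts in root replicates 1 and 2, against 0.0789% and 0.0852% in shoot.

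Most of these calls were of models that the shoot libraries list at 0. Among all models deposited, 6280 were at 0 in both shoot libraries and 88 at 0 in both root libraries, with 83 at 0 in all 4. A model at 0 in both shoot libraries enters the test only through its root counts, and can be called only higher in root. With no filter on low counts, 5073 of 6197 such models were called. Of the 5216 tested models at 0 in both shoot libraries, 5212 were called higher in root, but 1185 and 394 without root replicate 1 or 2 and 424 with all 8 libraries fitted together, against 4786 in the 7-library fit. Their median root level was 2.02 CPM, and 734 stood under 1 CPM, 4382 from 1 to under 10 CPM and 100 at 10 CPM or more. Among those at 10 CPM or more, 96 were called, and 9 reached 50 CPM.

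A 0 in this table limits what these calls can carry. All 734 calls under 1 CPM and all 1836 at 1 to 2 CPM were of models at 0 in both shoot libraries. In 114 called models the root mean was below 0.531 CPM, the level of 5 shoot counts, so a shoot level equal to the root's could have gone unlisted. When every 0 was set to 4 reads, an alternative chosen after seeing the data, edgeR called 0 of the 3512 models under 2 CPM higher in root and 9 lower, with 369 and 26 at an unadjusted p under 0.05. In that fit 1595 of the models at 0 in shoot were still called higher, and 2160 of the 6156 low models kept their call. Of the 2695 well expressed models higher in root, 1445 kept theirs, and of the 4053 lower ones 4043 did.

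The root libraries differed between themselves along the same axis of level. The median log2 ratio of root replicate 1 over replicate 2 was 0.30 for well expressed models and -0.55 for models under 10 CPM. By level it was -0.75 at 1 to 2 CPM and 0.38 at 100 to 1000 CPM, so replicate 2 carried more of the low models. The shoot libraries had medians of -0.01 and 0.00 for these classes. Over models at 10 CPM or more in both organs, the root libraries were at least 2-fold apart in 885 of 7925, against 9 of 7925 for the shoot libraries (0.5 CPM added). Without root replicate 1 or 2 the low models called numbered 1728 and 1257, whereas well expressed models called numbered 7863 and 7808. The part of this uneven spread in the calls was not tested.

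By their labels, libraries outside the fit share no sample with the root and shoot fit, and they were read for the same models. The label of rhizophore replicate 2 is uncertain, because the authors' Root average includes that library, as given below. Rhizophores are leafless axes that bear roots, sampled here at an age of 4 to 7 days, with a length of 2.5 to 3.5 cm and no cap or hairs. Leaves were whole microphylls aged 10 to 14 days, so organ and age cannot be told apart in their comparison. Among the 2695 well expressed models higher in root than in shoot, the median log2 ratio of rhizophore over leaf was 1.07 (0.5 CPM added). In 1460 of them (54.2%) both rhizophore libraries lay above both leaf libraries, and in 340 (12.6%) below. Among the 4053 models lower in root the median was -0.80, with 538 (13.3%) above leaf and 2269 (56.0%) below. Models that passed in neither direction had a median of 0.18, with 35.3% above and 31.8% below, and over all well expressed models these shares were 32.1% and 35.7%.

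The direction was the same with either rhizophore library, although their sizes differed. For models higher in root, the median log2 ratio over leaf was 0.57 with rhizophore replicate 1 and 1.28 with the library labelled rhizophore replicate 2. For models lower in root it was -0.66 and -1.42. The authors' averages place the second of these libraries with root. In the authors' deposited table the Root average was matched by weights of 24.9% and 25.5% for the root libraries and 49.6% for the library labelled rhizophore replicate 2. That library is not in the root and shoot fit.

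**Figure D5:**
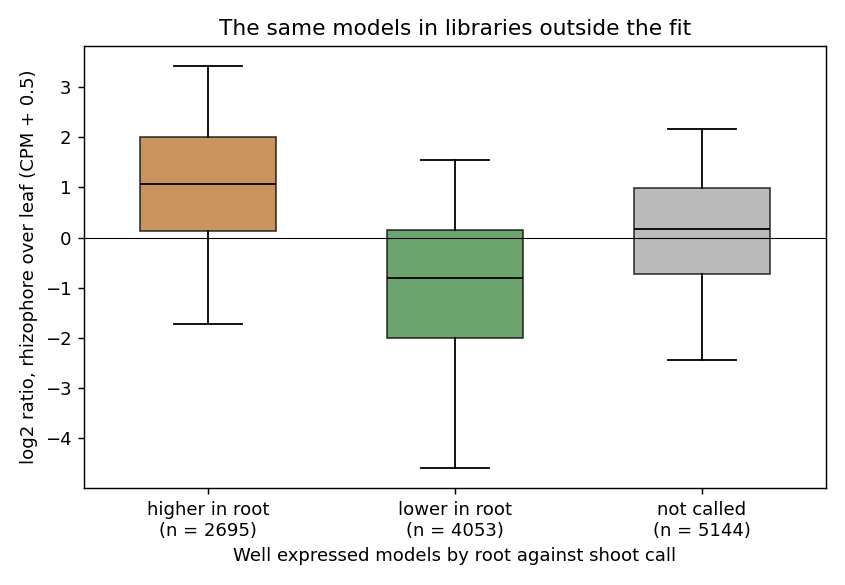
Log2 ratio of mean rhizophore over mean leaf CPM, with 0.5 CPM added, for well expressed models grouped by their root against shoot call. Boxes span the quartiles with a line at the median, and whiskers run from the 5th to the 95th percentile. Medians are 1.07 for models higher in root, -0.80 for models lower in root and 0.18 for models not called.

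Models listed at 0 in both shoot libraries were often at 0 elsewhere too. Of the 5216 tested, 1188 and 1490 were above 0 in rhizophore replicates 1 and 2, and 230 and 1433 in leaf replicates 1 and 2. Among the 100 with at least 10 CPM in root, 31 and 76 were above 0 in the rhizophore libraries and 7 and 44 in the leaf libraries. Leaf replicate 1 held only 2826533 counts, against 16058139 in leaf replicate 2, so fewer models could reach 5 counts there.

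The direction of most well expressed calls was also found in the authors' deposited table of averages. In that table, Root exceeded Shoot in 2681 of the 2695 models higher in root (99.5%). Root lay below Shoot in 3671 of the 4053 lower ones (90.6%), and 382 went the other way. For Smoe_00044417 the authors' deposited table gives 4.01 for Root and 21934 for Shoot, and for 76987.v1 it gives 101 for Root and 0 for Shoot. The Shoot average there rests on the same shoot libraries. The Root average holds the same root libraries at 24.9% and 25.5%, and the library labelled rhizophore replicate 2 at 49.6%. The models were picked for their direction in these root and shoot libraries, so this is no independent measure.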

How the data were processed

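Per the labels, the Nugen Ovation Amp V2 DR kit was used for the libraries, which were read as 50 bp single-end Illumina reads. Per the submitters' processing notes, Bowtie2 and edgeR were used; versions, genome build, annotation, counting tool, use of strand and handling of reads that match several places are, in the sources used here, not given. Per the file headers, the authors deposited raw counts per gene model and, in a second table, a normalized signal averaged per organ, whose method is not stated.

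Counts of the 4 libraries entered edgeR 4.0.16 under R 4.3.3 (TMM; filterByExpr left 23862 models and took out 1142; robust quasi-likelihood F test), with Benjamini-Hochberg adjustment over all models tested. Single-model p-values are adjusted p-values from it. Alternatives used DESeq2 1.42.0 and limma 3.58.1 (voom). The procedure was run on simulated data with the same spread setting for every model and library. The root and shoot replicates differed in spread, so that run gives no error rate for these data. Replicates differed by more than sampling noise, with a chi-square per degree of freedom of 119 for root and 13.0 for shoot.

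The comparison, lists and alternatives were chosen with earlier results of these data known. Named models were called, did not overlap between organs, reached 50 CPM in the higher organ and had the largest fold change, 2 per direction because no reference annotates them. Gene and marker lists written for annotated models could not be applied. Folds against 0 use 5 counts per library, the smallest listed value; such bounds and the Wilson intervals hold only counting error, since PCR reads with no molecular identifier are not independent molecules.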

Additional observations from a re-analysis of the deposited data

How the results depend on the processing

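Alternatives were fitted beside the 4-library test. A refit limited to models that reach 10 CPM in 2 libraries, with TMM recomputed on them, tested 11271 models. It called 6672 (3541 higher and 3131 lower in root), 53 of them at 0 in both shoot libraries. Of its 11238 well expressed models, 3541 were higher and 3122 lower, so the balance turned. The cause was not tested. All 8 libraries together called 3227, with 2785 well expressed, 442 low and 424 at 0 in shoot. Without the library labelled rhizophore replicate 2, the remaining 7 called 13526, with 7750 well expressed (4154 higher, 3596 lower), 5776 low and 4786 at 0 in shoot. With the replicate block, 3275 low models and 2126 at 0 in shoot were called, and 6304 well expressed ones. The shared numbers are not known to pair samples: same-numbered libraries did not deviate together (r = -0.02 across all tested models). With every 0 set to 4 reads, 2741 low models and 1595 at 0 in shoot were called. Library totals with no TMM called 10566 well expressed models, and a test against a 2-fold change 3588 (1226 higher, 2362 lower). limma-voom called 5009 well expressed models, and DESeq2 6442.

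Over all tested models the median log2 fold change was 0.63. It was 0.72 with DESeq2's size factors, with DESeq2's test and with no filter, 0.95 with TMM from well expressed models, 1.01 in that 7-library fit, 2.02 with library totals, 0.084 with the 10 CPM filter and 0.20 with every 0 at 4 reads. For well expressed models it turned to 0.18, 0.16, 1.45 and 0.090 with TMM from well expressed models, in the 7-library fit, with library totals and with the 10 CPM filter, and was -0.65 with every 0 at 4 reads. The cause of these changes was not tested.

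Leaving out each library in turn, where the lone library of an organ is assumed to vary like the others, gave 8309 to 9591 models called, 3989 to 7863 well expressed, 1257 to 4526 low and 394 to 3631 at 0 in shoot, and medians of 0.63 to 0.80 and -0.22 to -0.08. In all 4 of these fits, 959 of the 2695 well expressed models higher in root and 2315 of the 4053 lower ones kept their call. Some well expressed models were called in opposite directions by different fits of this kind. The excess of models listed in root was 6846. It was 6675 with root scaled to the shoot total, 7559.5 at 1 CPM or more and 6708 to 6984 without each library. The root's share of counts in the 10 most abundant models was lower by 26.5 percentage points (-26.5; -27.7 to -25.2 without each library), with -34.6 and -34.4 for the 50 and 100 most abundant. The call of 76987.v1 ended with all 8 libraries; those of the other 3 named models held in every alternative run.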

Other observations

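The table names its models in 2 ways, and these differed in level. Among tested models, 21144 had numeric names, with a median of 8.02 CPM in the higher organ, and 2718 had names starting in Smoe, with a median of 57.7 CPM. Of the numeric models 39.4% were higher in root and 17.0% lower, and of the Smoe models 19.2% were higher and 28.1% lower. Among well expressed models the medians of the log2 fold change were -0.21 for numeric names and -0.22 for Smoe names, with 23.8% and 18.2% higher in root and 34.8% and 31.2% lower. The difference between the kinds of name was not tested.

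Near-identical counts were found for some models, and how the authors' counting shared reads between copies is not stated. Of 13937 models averaging 100 counts or more over the 8 libraries, 393 had a partner within 0.1 log2 in each. Among the called well expressed models 151 were of this kind, 42 higher and 109 lower in root. They included 2 of the 20 most abundant models higher in root and 0 of the 20 most abundant lower ones.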
